A study of Mus musculus with 10 samples.

Results

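The genes described here encode a small set of epithelial transporters for sodium, potassium and chloride: the sodium pump subunits Atp1b1 and Atp1b3, the pump regulator Fxyd3, the cotransporters Slc12a2 and Slc12a7, the potassium channels Kcnj15, Kcnj16 and Kcnq1, and the sodium channel subunit Scnn1a. They were chosen by symbol as the transcellular partners of a paracellular channel for sodium or anions. Of the 9 genes named, 8 were listed in both tables of values, among 16292 genes in ameloblasts and 16638 in the stratum intermedium, and all 8 had the mean of at least 10 normalized counts that was set for testing. Kcnj16 was not listed in either table.

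The libraries came from mouse hemi-mandibles, from which 2 layers of the enamel organ, the epithelium that makes tooth enamel, were cut out by laser capture. Ameloblasts, the enamel-forming cells, and the stratum intermedium, the cell layer behind them, each had 3 libraries of claudin-10 knockout (KO) mice and 2 of wild-type (WT) mice. Prefixes in the library names recurred in both layers (KO1, KO3, KO9, WT10 and WT5) and were taken as 5 mice, although no label says so. If they are not separate mice, the p-values below measure no more than the spread between libraries. The sources used here give neither the age and strain of the animals, nor the promoter of any Cre, nor which part of Cldn10 was deleted.

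A transporting epithelium moves ions by a route through the cells and by a route between them. On the cellular route, the sodium pump (Na,K-ATPase) exports sodium and imports potassium. Cotransporters and channels use the resulting gradients to carry chloride, potassium and sodium across each face of the cell. Claudin-10 belongs to the route between the cells: its isoforms form tight junction channels selective for cations or for anions. In rodent enamel organs, ion transport of this kind accompanies the growth of enamel crystals, which takes up mineral ions and releases acid.

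The values are normalized counts. They summed to between 21006977 and 26856177 per library, but no raw counts were given, so the depth of sequencing is unknown. Cldn10 (chromosome 14, 118787908 to 118875489, GRCm38, plus strand) was at 280, 408 and 149 normalized counts in ameloblasts of KO1, KO3 and KO9 and at 600 and 752 in those of WT10 and WT5. Stratum intermedium libraries had 1003, 387 and 465 in KO and 7257 and 2365 in WT. Every KO library was lower than every WT library of its layer, and transcript of the gene remained listed in all of them. Ameloblast markers, 7 genes such as Amelx and Enam, took up 2.18% to 9.12% of ameloblast libraries and 0.123% to 0.942% of stratum intermedium libraries, with no overlap. The markers of the stratum intermedium, 6 genes such as Krt17 and Notch1, took up 0.0780% to 0.187% and 0.150% to 0.392%, which overlapped. Between 3.09% and 8.43% of each library came from odontoblast and pulp markers, and which cells those transcripts came from was not tested. Xist was at 5791 to 9555 in the libraries of KO1 and KO3, in which the Y-linked Ddx3y was listed at 0. Both WT prefixes and KO9 carried Ddx3y.

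The genes differed from one another in level and in layer, and levels were not tested between layers. Fxyd3 was higher in ameloblasts than in the stratum intermedium within all 5 mouse prefixes, as were 5.74% of the genes tested in both layers. Atp1b3, Atp1b1, Slc12a2 and Kcnq1 were higher in the stratum intermedium within all 5, as were 19.9% of those genes. Kcnq1 was low in ameloblasts, at 0 to 30.8 normalized counts. Between KO and WT, 0 of the 8 genes passed an adjusted p of 0.05 in either layer (limma, 0 at an unadjusted p under 0.05). Atp1b3 in ameloblasts had KO libraries that did not overlap the WT libraries, as had 18.4% of all genes tested there. So had Slc12a7, Kcnj15, Kcnq1 and Scnn1a in the stratum intermedium, as had 15.2% of all genes there.

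**Figure D1:**
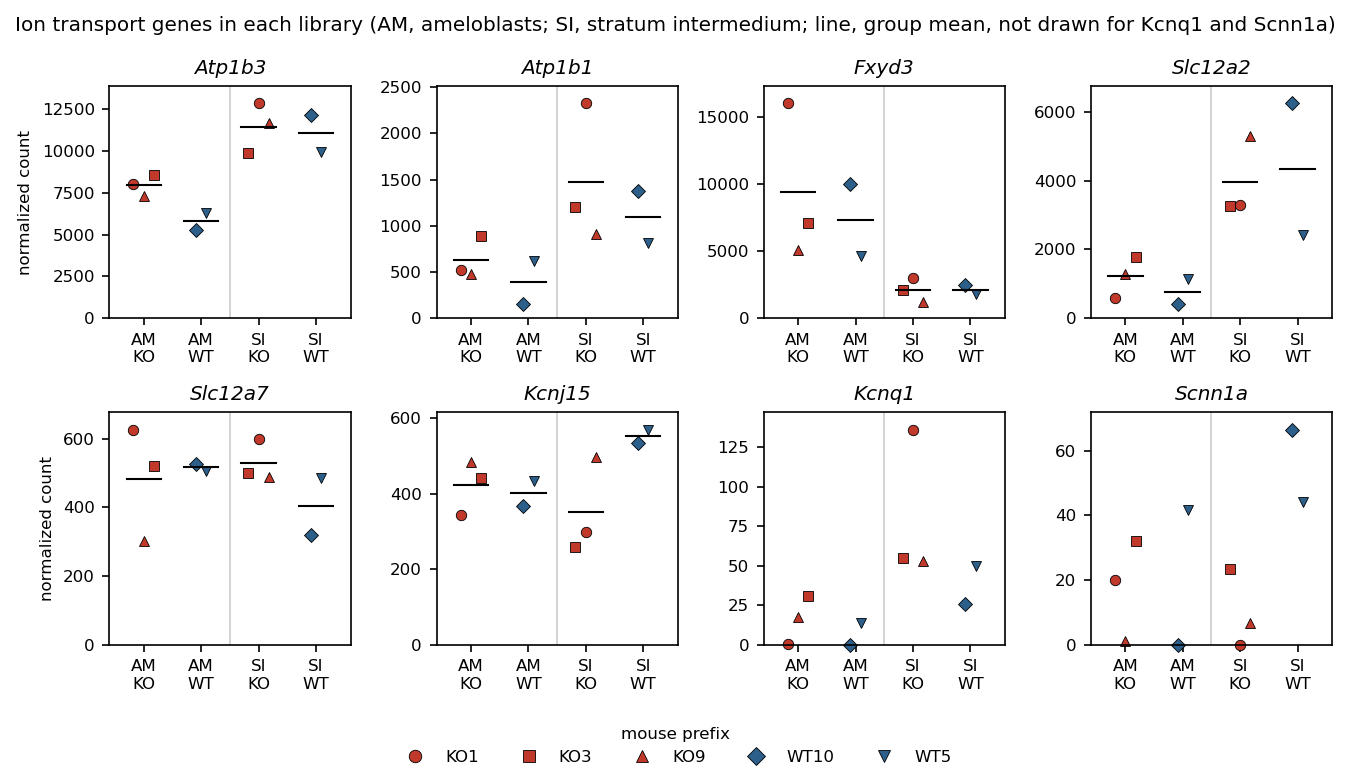
Normalized counts (linear axis from 0) of the 8 listed genes in each library. Points are libraries, with 1 symbol per mouse prefix, and horizontal lines are group means, which are not drawn for Kcnq1 and Scnn1a. Fxyd3 stands higher in ameloblasts (AM), whereas Atp1b3 and Slc12a2 stand higher in the stratum intermedium (SI), and the 3 KO libraries of Atp1b3 in ameloblasts, 7326 to 8529, lie above both WT libraries.

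The sodium pump is built of an alpha subunit, which binds and moves the ions, and a beta subunit, a glycoprotein that the alpha subunit needs for folding and for delivery to the cell surface. Atp1b3 and Atp1b1 encode alternative beta subunits. Per kilobase of principal transcript, the only scale on which levels of different genes are compared here, Atp1b3 averaged 3551 ± 657 normalized counts per kb in ameloblasts and 5656 ± 671 in the stratum intermedium (SD, n = 5 libraries each), and Atp1b1 averaged 207 ± 102 and 514 ± 234. Atp1b1 therefore made up 2.29% to 7.46% of the sum of both beta transcripts in ameloblast libraries and 5.72% to 12.3% in stratum intermedium libraries. These shares are formed within a library, so the separate normalization of the tables does not enter them.

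Atp1b3 (ENSMUSG00000032412; chromosome 9, 96332655 to 96364442, GRCm38, minus strand) was at 7985, 8529 and 7326 normalized counts in ameloblasts of KO1, KO3 and KO9, against 5271 and 6292 in those of WT10 and WT5. All 3 KO libraries were above both WT libraries. Non-overlap in either direction was found for 1 of the 8 genes in ameloblasts and for 18.4% of all 16212 genes tested. KO was higher without overlap for 9.09% of genes and lower for 9.26%, so this count is near the background. The means were 7947 ± 602 in KO (SD, n = 3) and 5781 ± 722 in WT (SD, n = 2), a log2 difference of 0.46 (SE 0.21, 95% confidence interval -0.04 to 0.97; limma, unadjusted p = 0.0667, adjusted p = 0.989). On the log2 scale the difference was 0.44 between KO3 and WT5, which share library group 1, and 0.47 between KO9 and WT10, which share library group 2. Stratum intermedium values of Atp1b3 were 12829, 9852 and 11626 in KO1, KO3 and KO9 and 12156 and 9927 in WT10 and WT5, which overlapped (log2 difference 0.05, 95% confidence interval -0.40 to 0.50).

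The content of stratum intermedium transcripts moved with Atp1b3. In the ameloblast libraries the 6 stratum intermedium markers summed to 0.170%, 0.187% and 0.129% in KO1, KO3 and KO9, against 0.0780% and 0.0988% in WT10 and WT5. Ordered by that share, the 5 ameloblast libraries stood in the same order as by Atp1b3. The same share in the stratum intermedium libraries was 0.392%, 0.164% and 0.176% in KO and 0.362% and 0.150% in WT, and the order was again that of Atp1b3 except that KO3 and WT5, the lowest, changed places. Of the 6 markers, 5 were higher in KO ameloblasts, 2 of them at an unadjusted limma p under 0.05, and none was listed at 0 in any library. Red blood cell markers ran the other way in ameloblasts, with 0.0814% to 0.144% in KO libraries and 0.244% to 1.28% in WT libraries. There 5 of 5 tested were lower in KO (median log2 difference -2.33, 4 at an unadjusted limma p under 0.05), the largest median shift of the marker lists in ameloblasts. Macrophage and osteoclast markers were lower in KO ameloblasts in 6 of 6 (median log2 difference -1.04, 2 at an unadjusted limma p under 0.05), at 0.103% to 0.453% in KO and 0.350% to 0.765% in WT. Skeletal muscle markers had a positive difference in 10 of 10 (median 1.06, 0 at an unadjusted limma p under 0.05), at 0.0806% to 0.272% in KO and 0.0203% to 0.369% in WT. The part of these cells in the Atp1b3 difference was not tested, and in bulk captures fewer cells of a type and less RNA per cell cannot be told apart.

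Atp1b1 (ENSMUSG00000026576; chromosome 1, 164437109 to 164458355, GRCm38, minus strand) was at 524, 889 and 478 normalized counts in ameloblasts of KO1, KO3 and KO9, against 160 and 623 in those of WT10 and WT5. The groups overlapped, and WT10 was the lowest library of the 5. The log2 difference was 0.94 (SE 0.60, 95% confidence interval -0.48 to 2.35; limma, unadjusted p = 0.160, adjusted p = 0.989). It rested on WT10: without that library, WT replicate 1, it was -0.04, and without WT5, WT replicate 2, it was 1.92 (limma, unadjusted p = 0.00565, adjusted p = 0.276). Its values in the stratum intermedium were 2327, 1201 and 913 in KO1, KO3 and KO9 and 1377 and 814 in WT10 and WT5. There KO1 was high and the other libraries of both genotypes were mixed (log2 difference 0.37, 95% confidence interval -0.64 to 1.37). Atp1b1 overlaps Nme7 on the opposite strand, and the sources used here do not give the strand setting of the counting, so reads of the shared stretch cannot be told apart.

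Fxyd3 encodes a small single-pass membrane protein of the FXYD family, which associates with the sodium pump and adjusts its ion affinity and turnover. The gene (ENSMUSG00000057092; chromosome 7, 31068172 to 31076704, GRCm38, minus strand) was at 15990, 7088 and 5056 normalized counts in ameloblasts of KO1, KO3 and KO9, against 10019 and 4668 in those of WT10 and WT5. The genotypes overlapped, and the KO1 library stood highest. The log2 difference was 0.28 (SE 0.54, 95% confidence interval -0.99 to 1.55; limma, adjusted p = 0.989), and it was 0.60 within library group 1 and -0.99 within library group 2. Fxyd3 in the stratum intermedium was at 3023, 2098 and 1223 in KO1, KO3 and KO9 and at 2505 and 1780 in WT10 and WT5, again with overlap (log2 difference -0.09, 95% confidence interval -0.99 to 0.80).

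The spread of Fxyd3 among ameloblast libraries ran beside their content of ameloblast markers. The 7 markers summed to 9.12%, 3.80% and 2.18% of the ameloblast libraries of KO1, KO3 and KO9, against 4.67% and 2.66% of those of WT10 and WT5. KO1, highest in Fxyd3, was highest in the markers, followed by WT10 and KO3 in both measures, and the 2 lowest libraries, KO9 and WT5, changed places. Klk4, a protease of the maturation stage, was listed at 0 in KO9, and the other 6 markers were above 0 in every ameloblast library. Over the stratum intermedium libraries the markers summed to 0.787%, 0.461% and 0.123% in KO and 0.488% and 0.942% in WT, where WT5 had the largest share but a low Fxyd3 value. The part of ameloblast content in the Fxyd3 values was not tested.

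**Figure D2:**
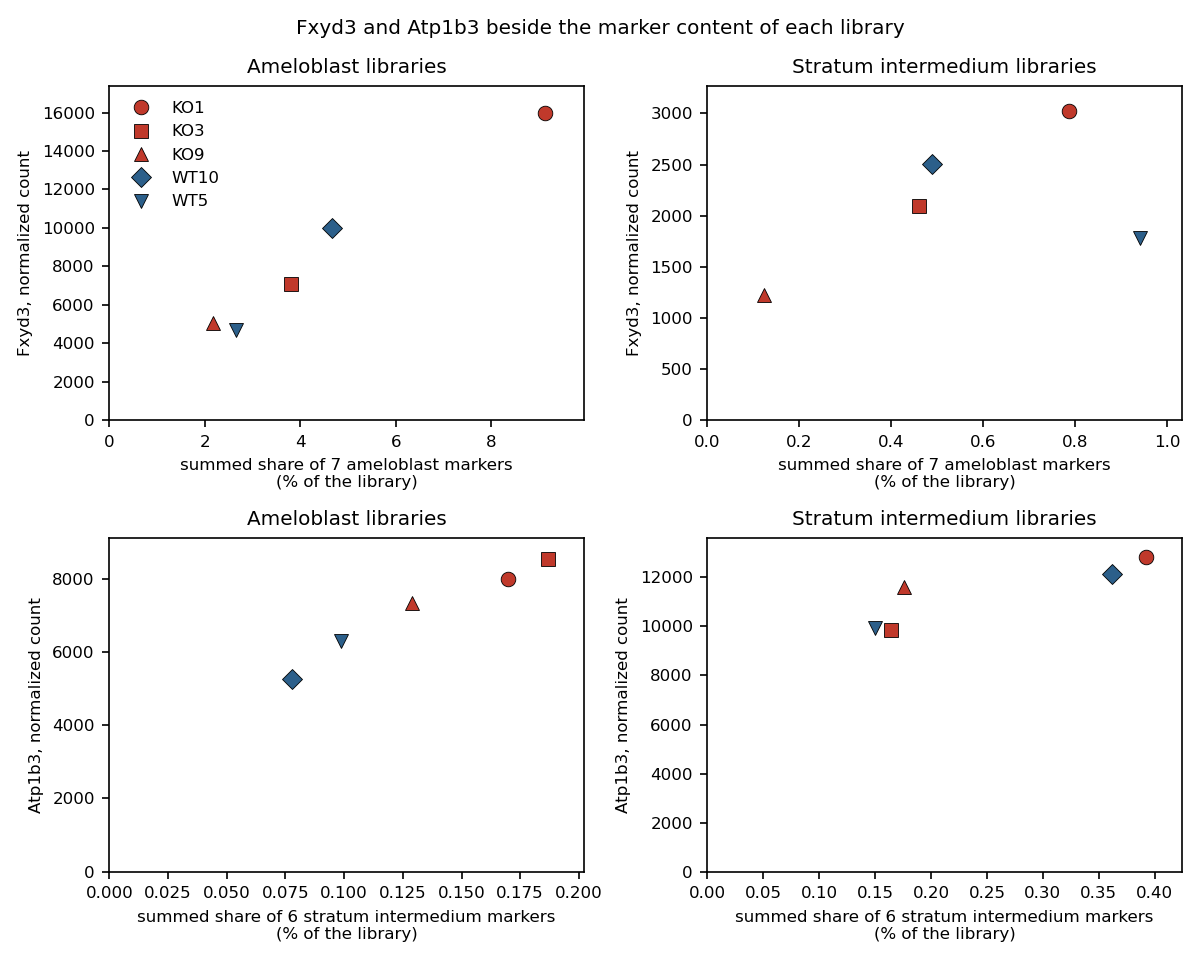
Normalized counts of Fxyd3 (upper row) against the summed share of 7 ameloblast markers in % of the library, and of Atp1b3 (lower row) against that of 6 stratum intermedium markers, with 1 point per library and both axes from 0. KO1, at 9.12% ameloblast markers, is highest in Fxyd3 among ameloblast libraries, and the ameloblast libraries line up in the same order by Atp1b3 and by stratum intermedium markers.

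Between the layers, Fxyd3 and the beta subunits went opposite ways. Because the tables were normalized separately, each value was divided by its library's summed normalized counts and multiplied by 1000000, here called the scaled value, and the layers were compared within a mouse prefix as a description, with no test. The scaled value of Fxyd3 was 4.33, 3.27, 4.02, 3.48 and 2.80 times as high in ameloblasts as in the stratum intermedium in KO1, KO3, KO9, WT10 and WT5. All 5 ameloblast libraries were above all 5 stratum intermedium libraries. Such a direction in all 5 prefixes was found for 5.74% of the 15567 genes tested in both layers. The scaled value of Atp1b3 was 1.96, 1.19, 1.63, 2.65 and 1.48 times as high in the stratum intermedium as in ameloblasts in the same prefixes, and the layers did not overlap. Atp1b1 was 5.42, 1.40, 1.96, 9.90 and 1.22 times as high in the stratum intermedium, but the layers overlapped. A higher value in the stratum intermedium in all 5 prefixes was found for 19.9% of genes. Within a library, the ratio of Fxyd3 to Atp1b3 per kb was 0.475 to 1.38 in ameloblasts (median 0.573) and 0.0725 to 0.162 in the stratum intermedium (median 0.142).

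Slc12a2 encodes the sodium-potassium-chloride cotransporter NKCC1, which loads cells with chloride on the side of the pump, and Slc12a7 encodes the potassium-chloride cotransporter KCC4, which lets both ions out. Slc12a2 (ENSMUSG00000024597; chromosome 18, 57878678 to 57946821, GRCm38, plus strand) was at 587, 1787 and 1290 normalized counts in ameloblasts of KO1, KO3 and KO9, against 428 and 1132 in those of WT10 and WT5. The genotypes overlapped, with KO1 and WT10 low. The log2 difference was 0.67 (SE 0.58, 95% confidence interval -0.70 to 2.03; limma, unadjusted p = 0.285, adjusted p = 0.989), and it was -0.03 without WT10. Slc12a2 in the stratum intermedium was at 3297, 3275 and 5293 in KO1, KO3 and KO9 and at 6242 and 2434 in WT10 and WT5. The WT libraries were the highest and the lowest of the 5 there (log2 difference -0.02, 95% confidence interval -0.98 to 0.95).

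Slc12a2 was higher in the stratum intermedium in every prefix, by ratios that varied widely. Its scaled value was 6.86, 1.90, 4.22, 16.8 and 2.02 times as high in the stratum intermedium as in ameloblasts in KO1, KO3, KO9, WT10 and WT5, and the layers did not overlap. The mean scaled value was 45.1 ± 25.1 in ameloblasts and 188 ± 80.5 in the stratum intermedium (SD, n = 5 each). In ameloblasts KO1 and WT10, which had the largest layer ratios, were also the 2 libraries with most ameloblast markers, 9.12% and 4.67%. The part of capture content in these ratios was not tested.

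Slc12a7 (ENSMUSG00000017756; chromosome 13, 73733094 to 73816754, GRCm38, plus strand) was at 626, 521 and 302 normalized counts in ameloblasts of KO1, KO3 and KO9, against 527 and 507 in those of WT10 and WT5. The KO libraries lay on both sides of the WT libraries (log2 difference -0.16, 95% confidence interval -1.05 to 0.73). The stratum intermedium had 599, 500 and 487 in KO1, KO3 and KO9, against 319 and 486 in WT10 and WT5. The groups did not overlap, but the lowest KO value and the higher WT value nearly met. The log2 difference was 0.42 (SE 0.31, 95% confidence interval -0.32 to 1.15; limma, unadjusted p = 0.222, adjusted p = 1.000), and it was 0.11 without WT10. Slc12a7 had no common direction between layers, its scaled value being higher in ameloblasts in 3 prefixes and in the stratum intermedium in 2. The ratio of Slc12a2 to Slc12a7 per kb within a library was 0.639 to 3.37 in ameloblasts (median 1.76) and 3.95 to 15.4 in the stratum intermedium (median 5.17), with no overlap between layers.

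**Figure D3:**
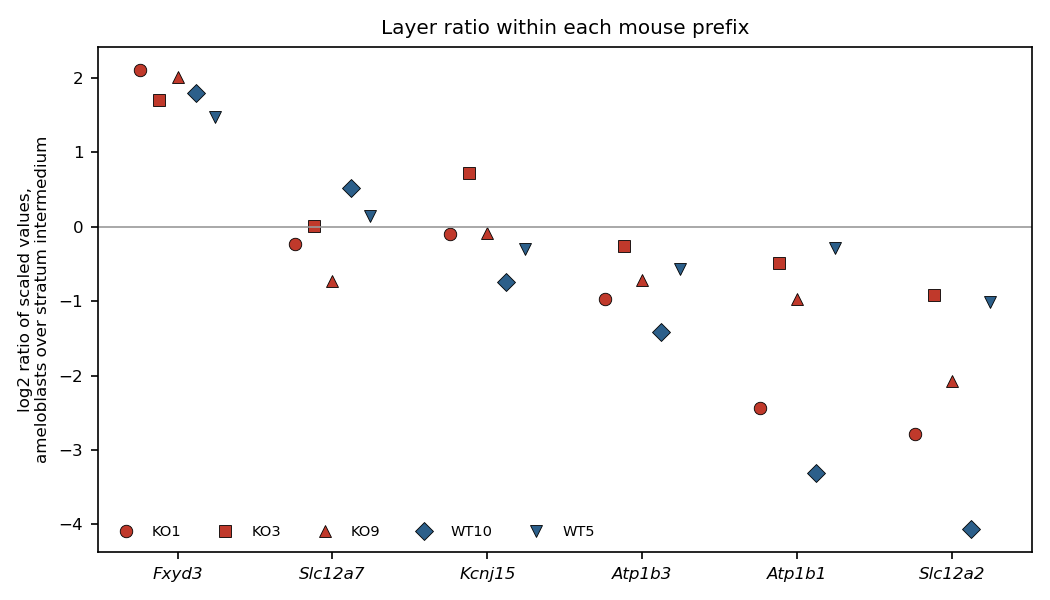
Log2 ratio of the scaled value in ameloblasts over that in the stratum intermedium for 6 of the genes, with 1 point per mouse prefix. Fxyd3 lies above 0 and Atp1b3, Atp1b1 and Slc12a2 lie below 0 in all 5 prefixes, whereas Slc12a7 and Kcnj15 lie on both sides.

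Potassium channels return the potassium that the pump and NKCC1 bring in. Kcnj15 encodes an inwardly rectifying channel of the Kir4 family, and Kcnj16, the gene not listed, encodes a channel subunit that assembles with that family. Kcnj15 (ENSMUSG00000062609; chromosome 16, 95257558 to 95300260, GRCm38, plus strand) was at 298, 260 and 497 normalized counts in the stratum intermedium of KO1, KO3 and KO9, against 534 and 570 in that of WT10 and WT5. All 3 KO libraries were lower than both WT libraries, although KO9 came close to them. Non-overlap in either direction was found for 4 of the 8 genes in this layer, 2 higher and 2 lower in KO, and for 15.2% of all 16543 genes tested, 7.76% higher and 7.44% lower. Scnn1a, among those lower, was listed in this layer mainly through both WT libraries, as given below. The means were 352 ± 127 in KO (SD, n = 3) and 552 ± 25.9 in WT (SD, n = 2), a log2 difference of -0.71 (SE 0.37, 95% confidence interval -1.56 to 0.15; limma, unadjusted p = 0.0926, adjusted p = 1.000). Between KO3 and WT5 it was -1.13 and between KO9 and WT10 it was -0.10, and leaving out each library gave -0.99 to -0.52.

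In ameloblasts Kcnj15 was at 343, 443 and 484 in KO1, KO3 and KO9 and at 368 and 435 in WT10 and WT5. The genotypes were mixed (log2 difference 0.07, 95% confidence interval -0.67 to 0.80). The KO difference in ameloblasts exceeded that in the stratum intermedium by 0.77 on the log2 scale (SE 0.35, 95% confidence interval -0.11 to 1.66), which had the smallest p of the 8 genes for the difference between layers (limma on paired prefixes, unadjusted p = 0.0749, adjusted p = 0.864). Its levels per kb overlapped between layers, at 80.9 ± 11.3 in ameloblasts and 84.2 ± 27.8 in the stratum intermedium (SD, n = 5 each), on separately normalized scales.

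Kcnq1 encodes a voltage-gated potassium channel that works with KCNE subunits in secretory epithelia. The gene (ENSMUSG00000009545; chromosome 7, 143106362 to 143427042, GRCm38, plus strand) was at 136, 54.9 and 52.9 normalized counts in the stratum intermedium of KO1, KO3 and KO9, against 25.8 and 49.9 in that of WT10 and WT5. The groups did not overlap, with KO1 far above the rest and KO9 just above WT5. The log2 difference was 1.01 (SE 0.76, 95% confidence interval -0.77 to 2.79; limma, unadjusted p = 0.223, adjusted p = 1.000). In ameloblasts Kcnq1 was listed at 0.701, 30.8 and 17.8 in KO1, KO3 and KO9 and at 0 and 13.9 in WT10 and WT5. It was listed there with 3 libraries at 10 or more, the fewest that any listed gene had, and its fitted log2 difference depended on the pseudocount (1.72 with 0.5, 1.38 with 1 and 0.64 with 8). Its scaled value was higher in the stratum intermedium in all 5 prefixes. Kcnq1ot1, a long noncoding RNA, runs on the opposite strand within Kcnq1 and was listed in both tables, so reads of the shared stretch cannot be told apart.

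Scnn1a encodes the alpha subunit of the epithelial sodium channel, the entry path for sodium in absorbing epithelia. The gene (ENSMUSG00000030340; chromosome 6, 125320659 to 125344943, GRCm38, plus strand) had low values in both layers. It was at 0, 23.3 and 6.77 normalized counts in the stratum intermedium of KO1, KO3 and KO9, against 66.5 and 44.0 in that of WT10 and WT5. All 3 KO libraries were lower than both WT libraries. In each layer only 3 libraries were at 10 or more, the fewest that any listed gene had. In the stratum intermedium these were both WT libraries and KO3, so the listing of Scnn1a rested mainly on the higher group. The fitted log2 difference was -3.26 (SE 1.60, 95% confidence interval -7.03 to 0.50; limma, unadjusted p = 0.0798, adjusted p = 1.000), and it depended on the pseudocount, at -3.63 with 0.5 and -2.01 with 8. With the pseudocount of 8 the unadjusted limma p was 0.0353 and the adjusted p 1.000. In ameloblasts Scnn1a was at 20.1, 32.0 and 1.06 in KO1, KO3 and KO9 and at 0 and 41.7 in WT10 and WT5, where the WT libraries were the lowest and the highest of the 5.

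**Figure D4:**
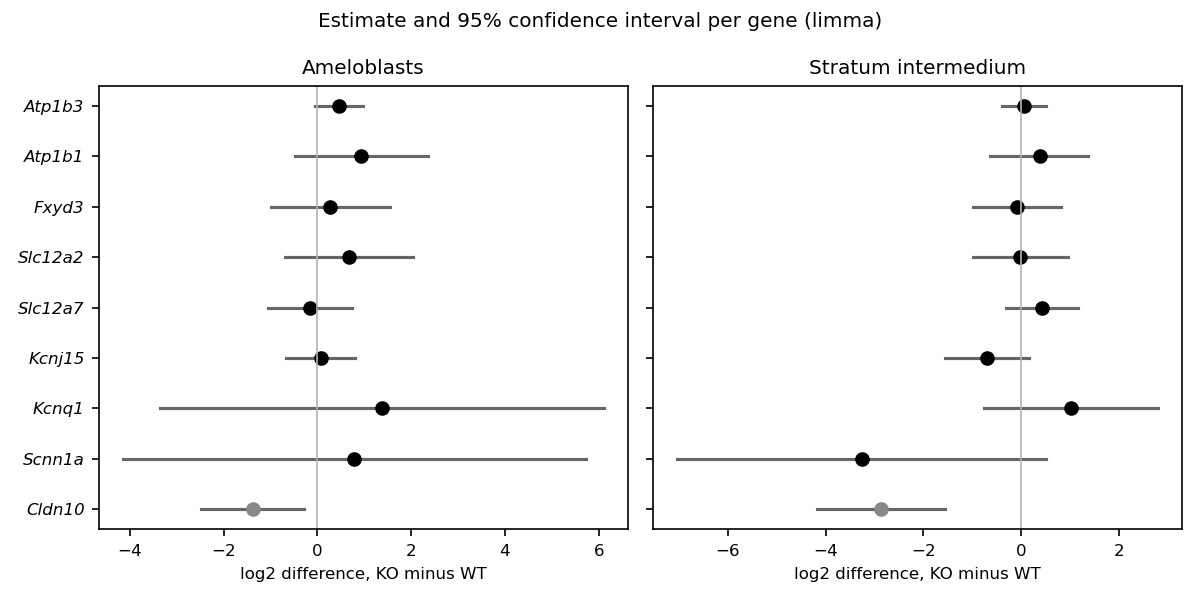
Log2 difference, KO minus WT, on log2(normalized count + 1), with its 95% confidence interval from limma, for the 8 listed genes (black) and Cldn10 (grey) in each layer. The intervals of all 8 genes include 0 in both layers, those of Kcnq1 and Scnn1a are widest in ameloblasts, and those of Cldn10 lie below 0.

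Across the 8 genes, limma gave 0 with an unadjusted p under 0.05 in ameloblasts, where 3.07% of all genes tested had one, and 0 in the stratum intermedium, where 2.06% had one. Over all genes, 0 passed an adjusted p of 0.05 in either layer (limma, 498 at an unadjusted p under 0.05 in ameloblasts and 340 in the stratum intermedium). Cldn10 itself did not pass it, with a limma unadjusted p of 0.0208 in ameloblasts (adjusted p = 0.989) and 0.00120 in the stratum intermedium. A count of 0 at the adjusted threshold therefore does not show that the 8 genes were unchanged. In ameloblasts 7 of the 8 had a positive log2 difference, with a median of 0.56, against a median of 0.04 and a positive sign in 53.0% of all genes. That direction leaned on WT10. It was the lowest ameloblast library for Atp1b1, Atp1b3, Slc12a2, Kcnq1 and Scnn1a, and it had the most genes listed at 0, 706 against 33 in WT5. KO1, KO3 and KO9 had 224, 41 and 420. Without WT10, the differences of Atp1b1, Slc12a2, Kcnj15, Kcnq1 and Scnn1a were -0.04, -0.03, -0.05, -0.57 and -1.92, and that of Atp1b3 was 0.33. That of Slc12a7 was -0.13, and that of Fxyd3 went the other way, from 0.28 to 0.83. Of the stratum intermedium differences 4 were positive and 4 negative, with a median of 0.02, against a median of 0.02 and a positive sign in 51.9% over all genes. For the difference of the KO effect between layers, 0 of the 8 had an unadjusted limma p under 0.05, against 4.80% of 15567 genes, and 0 of all genes passed an adjusted p of 0.05 (747 unadjusted). Their estimates were imprecise, with standard errors between 0.35 for Kcnj15 and 3.48 for Kcnq1.

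The wider machinery of the same ions was read from 6 lists of 80 further genes, of which 62 were tested in ameloblasts and 65 in the stratum intermedium. With limma, 0 passed an adjusted p of 0.05 in either layer. In ameloblasts 44 of 62 had a positive log2 difference (median 0.21), against 53.0% of all genes (median 0.04). An unadjusted p under 0.05 was found for 2 of the 62, both higher in KO, a share of 3.23% against 3.07% of all genes, of which 365 were higher and 133 lower. The stratum intermedium had 28 of 65 positive (median -0.11), against 51.9% of all genes (median 0.02). There 2 of the 65 had an unadjusted p under 0.05, both lower in KO, a share of 3.08% against 2.06% of all genes, of which 210 were higher and 130 lower. The shares at an unadjusted p under 0.05 rest on 2 genes per layer and are near those of all genes. Positive differences were more frequent than over all genes in ameloblasts and less frequent in the stratum intermedium. That contrast was not tested, and whether it leaned on WT10, as the direction of the 8 genes did in ameloblasts, was not tested either. Sodium pump subunits and FXYD regulators were positive in 6 of 9 in ameloblasts (median 0.18) and in 7 of 10 in the stratum intermedium (0.35). Cation-chloride cotransporters and their kinases were positive in 7 of 11 (0.06) and 3 of 11 (-0.29), and epithelial potassium channels in 7 of 11 (0.27) and 4 of 12 (-0.18). The epithelial sodium channel and its regulators were positive in 7 of 7 (0.63) and 4 of 7 (0.09), chloride channels in 14 of 18 (0.29) and 7 of 19 (-0.17), and sodium/proton exchangers in 3 of 6 (-0.03) and 3 of 6 (-0.01).

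Of the further genes, 4 had an unadjusted p under 0.05 in 1 layer, and each missed it under several alternatives. With replicate number as a block, limma gave an unadjusted p of 0.0796 for Kcnn4, 0.0605 for Lrrc8c, 0.134 for Clcn7 and 0.0965 for Wnk3. With library group as a block, limma gave 0.0287 for Kcnn4, 0.0136 for Lrrc8c, 0.103 for Clcn7 and 0.0544 for Wnk3. Replicate 3 and library group 3 each held only a KO library in a layer, so in these fits that library did not inform the KO difference. For the difference of the KO effect between layers, 3 of 61 had an unadjusted p under 0.05, 4.92% against 4.80% of all genes: Lrrc8c, Clcn7 and Kcnk2. Kcnn4, a calcium-activated potassium channel of epithelia and blood cells, was at 182, 252 and 208 normalized counts in ameloblasts of KO1, KO3 and KO9, against 54.9 and 110 in those of WT10 and WT5 (log2 difference 1.43, SE 0.48; limma, unadjusted p = 0.0202, adjusted p = 0.989). The KO libraries were all above the WT libraries. In the stratum intermedium Kcnn4 was at 83.0, 145 and 179 in KO and at 22.9 and 91.7 in WT, where the groups overlapped. Without WT10 the ameloblast difference was 0.94 (limma, unadjusted p = 0.0928). Kcnk2, a background potassium channel, had a KO difference of 0.39 in ameloblasts and -1.05 in the stratum intermedium, and the difference between layers was 1.44 (SE 0.50; limma, unadjusted p = 0.0327, adjusted p = 0.864) and 0.62 with sex as a covariate.

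Lrrc8c, a subunit of the volume-regulated anion channel, was at 1295, 1220 and 1980 in KO ameloblasts, against 1015 and 605 in WT ameloblasts (log2 difference 0.90, SE 0.34; limma, unadjusted p = 0.0336, adjusted p = 0.989). Without WT5 it was 0.53 (limma, unadjusted p = 0.193). In the stratum intermedium it was at 1300, 770 and 955 in KO and at 1373 and 1099 in WT. The KO difference was larger in ameloblasts than in the stratum intermedium by 1.22 (SE 0.41; limma, unadjusted p = 0.0308, adjusted p = 0.864). Clcn7, the chloride/proton exchanger of lysosomes, was at 757, 830 and 860 in the stratum intermedium of KO1, KO3 and KO9, against 1098 and 1329 in that of WT10 and WT5 (log2 difference -0.57, SE 0.23; limma, unadjusted p = 0.0401, adjusted p = 1.000). In ameloblasts it was at 1102, 1054 and 1178 in KO and at 1046 and 863 in WT, and the KO difference there exceeded that in the stratum intermedium by 0.79 (SE 0.30; limma, unadjusted p = 0.0464, adjusted p = 0.864). Wnk3, a kinase that regulates cation-chloride cotransporters, was at 37.9, 80.0 and 32.0 in KO and at 213 and 139 in WT in the stratum intermedium (log2 difference -1.88, SE 0.65; limma, unadjusted p = 0.0226, adjusted p = 1.000). In ameloblasts its values ranged from 6.69 to 170 in KO and from 36.0 to 98.1 in WT, which overlapped.

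**Figure D5:**
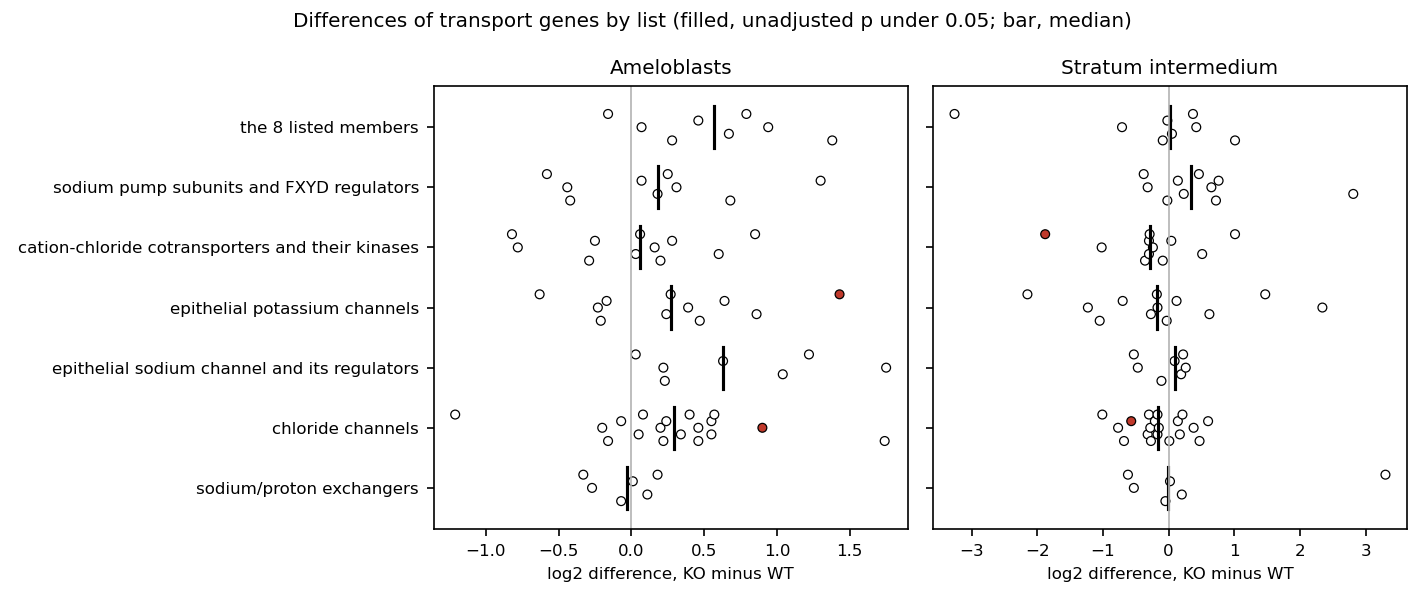
Log2 difference, KO minus WT, for the 8 listed genes and for each tested gene of 6 further lists, in ameloblasts (left) and the stratum intermedium (right). Circles are genes, filled at an unadjusted limma p under 0.05, and bars are list medians, which are 0.63 in ameloblasts and 0.09 in the stratum intermedium for the epithelial sodium channel list.

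Among the listed genes of the set, Atp1b3 had the highest mean level per kb in both layers, with Fxyd3 near it in ameloblasts only. The channel genes of the set, Kcnj15, Kcnq1 and Scnn1a, had the lowest means in both layers. In ameloblasts some genes of the further lists, a potassium channel among them, had higher means than Atp1b3, as given below. Levels are again normalized counts per kb of principal transcript, as mean ± SD over 5 libraries of a layer. In ameloblasts the order ran from Atp1b3 at 3551 ± 657 and Fxyd3 at 2959 ± 1611, which did not differ beyond their spread, to Atp1b1 at 207 ± 102 and Slc12a2 at 160 ± 84.3, which also overlapped. The order of the first pair depends on the transcript lengths used, 1994 bases for Atp1b3 and 2894 for Fxyd3. Before division by length, Fxyd3 had the higher mean there, 8564 normalized counts against 7081. Slc12a7 at 96.6 ± 23.0 and Kcnj15 at 80.9 ± 11.3 followed, likewise within their spread. Kcnq1 ranged from 0 to 10.2 per kb there. In the stratum intermedium Atp1b3 at 5656 ± 671 stood alone, and Fxyd3 at 735 ± 237, Slc12a2 at 630 ± 244 and Atp1b1 at 514 ± 234 overlapped one another. Slc12a7 at 93.0 ± 19.6 and Kcnj15 at 84.2 ± 27.8 overlapped, and Kcnq1 at 21.1 ± 13.8 was lower than both. Scnn1a ranged from 0 to 19.0 there.

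The genes with the highest level of each list give the scale. Fxyd4, another FXYD regulator, led the pump list in ameloblasts at 5185 ± 4983 per kb, but at 3010 without KO1, which is below the 3551 of Atp1b3 over all 5 libraries, and Fxyd5 led it in the stratum intermedium at 2140 ± 843. Kcnk1, a background potassium channel, stood at 8442 ± 3494 in ameloblasts and 2048 ± 373 in the stratum intermedium, far above Kcnj15 and Kcnq1. The cotransporter gene Slc12a4, which encodes KCC1, stood at 940 ± 342 and 440 ± 122. The ubiquitin ligase gene Nedd4, listed with the sodium channel regulators beside Nedd4l, stood at 3936 ± 318 and 5273 ± 346. The chloride/proton exchanger gene Clcn4 stood at 842 ± 241 and 697 ± 64.6, and the exchanger scaffold gene Slc9a3r2 at 201 ± 58.2 and 407 ± 47.5.

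How the genes varied together was described by Pearson's r over the 10 libraries, on log2 values with the mean of each gene in each table subtracted. Libraries of 1 mouse and of 1 table share their source, so no p is given. Among the 8 genes, Atp1b1 and Atp1b3 had r = 0.79, Atp1b1 and Kcnq1 0.73, Slc12a2 and Kcnq1 0.68, and Slc12a7 and Kcnj15 -0.56. Over all genes, the most alike were Nectin4 (0.968) and Srd5a1 (0.965) for Atp1b3, Pitpnc1 (0.965) and Plb1 (0.961) for Atp1b1, and Gcat (0.989) and Snrpn (0.984) for Fxyd3. They were Nynrin (0.959) and Lmo4 (0.942) for Slc12a2, Dchs2 (0.968) and Fbxo2 (0.966) for Slc12a7, and Sel1l (0.938) and Sepsecs (0.934) for Kcnj15. For the low genes they were Tyro3 (0.932) and Wnt16 (0.927) for Kcnq1, and Megf11 (0.965) and Pnpla1 (0.962) for Scnn1a. These are the highest correlations among all genes tested in both layers, over few libraries.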

How the data were processed

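The signal values deposited by the authors were normalized counts per gene, in 1 table per layer, which the authors' table names call DESeq2 normalized with outliers left out (Ensembl release 101). The submitters' processing notes name GRCm38 as the build, and DESeq, featureCounts, Picard 2.8.1, STAR 2.5.2b and FastQC as tools. All listed genes had at least 10 in at least 3 of 5 libraries. Whole reads could not be recovered, so no count test was run, and depth is unknown. Columns were matched by library name (0 unused). In ameloblasts KO replicates 1, 2 and 3 are KO1, KO9 and KO3, and in the stratum intermedium KO3, KO1 and KO9. WT replicates 1 and 2 are WT10 and WT5.

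Within a table, KO was compared with WT on log2(value + 1) by two-sided limma-trend (limma 3.58.1, R 4.3.3), keeping genes whose mean was 10 or more, with Benjamini-Hochberg adjustment over all of them and a threshold of 0.05. A fold change on this scale understates that of low genes. The difference between layers was tested on ameloblast minus stratum intermedium values of each prefix. Libraries of 1 prefix deviated together across layers (r = 0.201 to 0.311, with WT10 and WT5 sharing 1 value), so prefixes were paired. Each prefix had the same library group in both layers, so mouse and library group cannot be told apart here. Within a layer, KO and WT libraries of 1 library group had r = 0.273 and 0.116 in ameloblasts. In the stratum intermedium they had r = 0.186 and 0.00593. Levels per kb used the longest principal transcript in the GENCODE annotation of GRCm38, the source of positions too.

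Every listed gene of the set was named, with Cldn10, the gene of the highest level per kb in each of 6 lists, list genes with an unadjusted p under 0.05 in a layer, and the 2 genes most alike each gene of the set. Kcnk2 was named after its value was seen. Genes, lists and 10 marker lists were chosen with earlier results of these data known. Markers of endothelial cells made up 0.00642% to 0.0395% of libraries, of nerve and glia 0.00675% to 0.0694%, of macrophages and osteoclasts 0.103% to 0.929%, of fibroblasts 0.253% to 0.761%, of salivary and oral epithelium 0.0991% to 0.559%, and of skeletal muscle 0.0203% to 0.732%.

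The alternatives tried were a pseudocount of 0.5 or 8, a minimum mean of 50 or none, quantile normalization, median-ratio rescaling, library weights (statmod 1.5.0), robust variance, an adjusted threshold of 0.1, a block for replicate number, a block for library group, sex (read from Xist and Ddx3y) as a covariate and leaving out each library. Unpaired layers and leaving out libraries for levels were added after seeing the data. The limma scripts were tested on simulated data. Figures used matplotlib 3.10.9 in Python 3.11.15.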

Additional observations from a re-analysis of the deposited data

How the results depend on the processing

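No gene of the set passed an adjusted p of 0.05 under any alternative in limma. The number at an unadjusted p under 0.05, which was 0 in each layer, became 1 in ameloblasts with library weights (Atp1b3) and 2 with library group as a block (Atp1b1 and Slc12a2), and 1 in the stratum intermedium with a pseudocount of 8 or quantile normalization (Scnn1a). With 1 library left out it was 0 to 2 in ameloblasts (2 without WT replicate 2) and 0 to 1 in the stratum intermedium (1 without KO replicate 1 or 3). Over all genes, leaving out a library gave 0 to 1 with an adjusted p under 0.05 in ameloblasts. KO and WT libraries of 1 replicate number had r = 0.0862 and -0.116 in ameloblasts and -0.186 and -0.133 in the stratum intermedium. With 2 WT libraries, the deviations of WT10 and WT5 mirror each other. The values -0.116 and -0.186 are therefore those of library group given above with the sign reversed. With the replicate number as a block the count at an unadjusted p under 0.05 stayed 0 in both layers. Replicate 3 and library group 3 each held only a KO library in a layer, so each block fit left that library out of the KO difference.

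Some log2 differences changed sign. In ameloblasts Fxyd3 was -0.19 with library group as a block and -0.44 with sex as a covariate, and Scnn1a was -1.66 with sex. In that fit KO9 alone gives the KO difference. In the stratum intermedium library group gave -0.02 for Atp1b1, -0.04 for Atp1b3 and 0.10 for Slc12a2, sex gave -0.21 for Atp1b1 and 0.44 for Slc12a2, library weights gave -0.02 for Atp1b3, and the replicate block gave 0.25 for Fxyd3. The layer difference of Kcnq1 was -0.25 with a pseudocount of 8. The cause was not tested. Leaving out single libraries gave ranges across 0 in ameloblasts for Atp1b1 (-0.04 to 1.92), Fxyd3 (-0.27 to 0.83), Slc12a2 (-0.03 to 1.37), Slc12a7 (-0.38 to 0.14), Kcnj15 (-0.05 to 0.21), Kcnq1 (-0.57 to 3.33) and Scnn1a (-1.92 to 3.50). Stratum intermedium ranges across 0 were those for Atp1b1 (-0.02 to 0.75), Atp1b3 (-0.10 to 0.20), Fxyd3 (-0.40 to 0.25) and Slc12a2 (-0.70 to 0.66), as were those of the layer difference for Atp1b1 (-0.79 to 1.93), Slc12a2 (-0.70 to 2.07) and Kcnq1 (-1.12 to 2.09). Leaving out single libraries kept the sign for Atp1b3 in ameloblasts (0.33 to 0.59) and, in the stratum intermedium, for Kcnj15 (-0.99 to -0.52), Scnn1a (-4.31 to -2.00), Slc12a7 (0.11 to 0.72) and Kcnq1 (0.55 to 1.47). A mean of at least 50 leaves no value for Kcnq1 and Scnn1a in ameloblasts and for Scnn1a in the stratum intermedium.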
